A study of Triticum aestivum with 24 samples.

Results

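Flag leaves were compared with stems of the semi-dwarf wheat line *Rht-B1b*, using 3 leaf samples (numbered 11, 14 and 17 by the submitters) and 3 stem samples (numbered 2, 5 and 8). The genes are 25 of the 26 wheat genes in the values used here, all but actin, and the samples are 6 of the 12 tissue samples in the series. The authors selected these genes, so shares of genes describe this list only. A global analysis that the paper also mentions is not covered. Both tissues came from field-grown, irrigated plants of spring wheat at 14 days post anthesis (DPA), collected at mid-morning. The line is a near isogenic line in the background of the variety Fortuna, homozygous for the *Rht-B1b* allele brought in from Hi-Line by backcrossing, so leaves and stems alike carry the semi-dwarfing allele. The methods describe a replicate both as tissue of a single plant and as a composite of plants from 1 row, and the comparison rests on 1 line at 1 stage. Each tissue sample is listed as 2 entries that share 1 column of values, so 12 of 24 listed entries are covered. The titles do not say whether the 2 entries are separate libraries, and each tissue sample counts as 1 replicate.

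The flag leaf is the last leaf to unfold below the ear and, during grain filling, a main source of sugar for the grain. Its mesophyll fixes carbon dioxide with RuBisCO and assimilates nitrogen in the chloroplast, and sucrose is loaded into the phloem by membrane transporters. The cereal stem carries this sucrose towards the ear and can store carbohydrate for a time. Starch, where it is made, is built from ADP-glucose, which ADP-glucose pyrophosphorylase (AGPase) provides to starch synthases and branching enzymes.

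The values are RPKM (reads per kilobase of transcript, relative to the mapped reads of the library) that the authors then scaled so that actin had the same value, 1432.5, in every sample. A difference between tissues on this scale is therefore a difference relative to actin. For that reason each comparison is also given as a ratio of genes within a sample, which the scaling cannot alter, and as the rank of the gene among the 26 of a sample. Differences were tested with limma on log2(RPKM + 1), two-sided, with Benjamini-Hochberg adjustment over 25 genes and a threshold of 0.05. In this fit the genes came to share 1 standard error of 0.25 on the log2 scale, and the smallest p-values therefore say nothing of how much any single gene varied. The highest adjusted p over the alternatives tried for a gene, which include a fit on that gene's own spread, is given beside the reported one. No such fit was run for the ratios, whose standard errors were drawn largely from the other ratios. Their p-values and intervals therefore do not measure the spread of a single ratio. Read counts and depth are unknown, so no counting interval is given. Reads had to match a listed sequence without mismatch, and related copies may share reads.

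Against actin, 11 of 25 genes (44%) were higher in leaves and 7 of 25 (28%) were lower, so that 18 (72%) passed and 7 did not. The genes higher in leaves were the 4 RuBisCO sequences, the ATP synthase subunit, GS2, NiR, SUT1D, starch synthase IV, hexokinase and gid2. The genes lower in leaves, and thus higher in stems, were agp2, the small subunit of AGPase, GDH, NADH-GOGAT-3B, GAPC8, Rht-B1 and Rht-D1. For 19 of 25 genes (76%) the 3 samples of 1 tissue all lay above those of the other. With 3 samples per tissue the smallest p of an exact two-sided permutation test is 0.1, and each of these genes was at it. In bulk tissue, fewer cells of a type and less RNA per cell cannot be told apart.

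**Figure D1:**
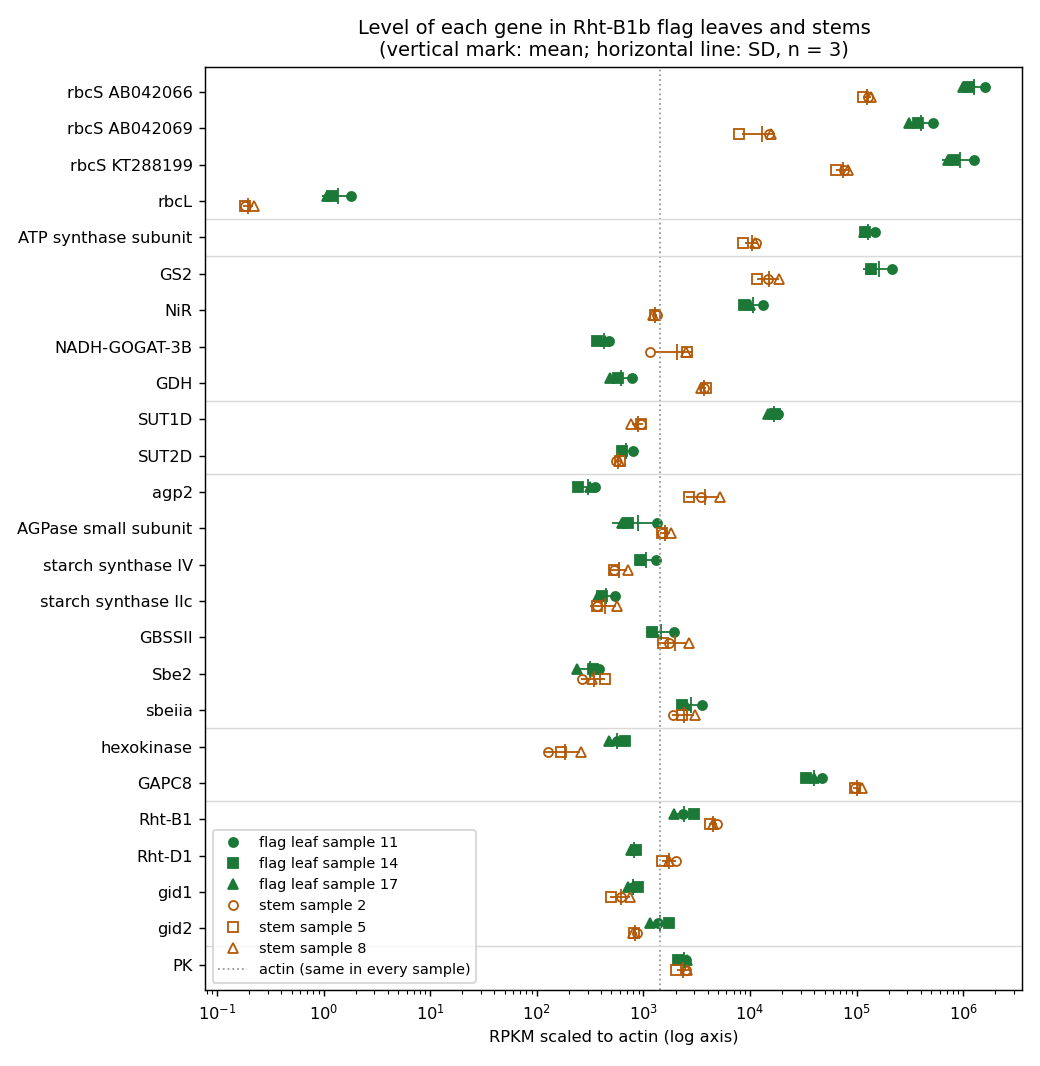
Level of each of the 25 genes, in RPKM scaled to actin on a log axis, in the 3 flag leaf samples (filled green) and the 3 stem samples (open orange) of *Rht-B1b*, with the mean and SD of each tissue; the dotted line is actin. The rbcS sequences, GS2, the ATP synthase subunit, NiR and SUT1D lie far to the right in leaves, agp2, GDH and NADH-GOGAT-3B in stems, and the tissues overlap for starch synthase IIc, GBSSII, Sbe2, sbeiia, gid1 and PK.

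Within a tissue, the same samples tended to be high. Leaf sample 11 had the highest leaf value for 19 of 25 genes, and stem sample 8 had the highest stem value for 15 of 25. The coefficient of variation over 3 samples had a median of 20.7% in leaves (4.83% to 43.7%) and 14.5% in stems (4.22% to 38.8%). The order of genes was close within a tissue. Spearman's rho across 26 genes was 0.989 to 0.990 between leaf samples and 0.971 to 0.988 between stem samples, against 0.651 to 0.731 between a leaf and a stem sample. These are descriptions across genes, which are not independent replicates.

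Actin itself could only be set against the other genes. Its level relative to the geometric mean of 22 genes (actin included, without the 3 rbcS sequences and Rht-B1) was 0.806, 1.01 and 1.06 in leaf samples 11, 14 and 17 and 1.35, 1.34 and 1.11 in stem samples 2, 5 and 8. The tissues did not overlap, and the log2 difference, leaf minus stem, was -0.40 (standard error 0.19), not past the threshold in limma (adjusted p = 0.0507). Without stem sample 8 it was -0.50 and passed (adjusted p = 0.0258). Relative to the median gene it had the opposite sign, 0.42 (adjusted p = 0.0628 from limma), and relative to all 26 genes it was -0.76 (adjusted p = 0.000180 from limma), with adjusted p between 0.000180 and 0.122 over 9 alternatives. Whether actin differs between the tissues was thus not settled by these genes. The 22 genes are not a neutral reference, as they include genes called different here, such as GS2, SUT1D, agp2 and rbcL. The median log2 difference of all 25 genes was 0.24 with scaling to actin, -0.17 with the geometric mean of 22 genes and 0.65 with the median gene, so the direction of a small difference depends on the scaling. The split of called genes was 11 higher and 7 lower with actin, 10 and 10 with the geometric mean of 22 genes and 15 and 7 with the median gene. Genes were not called with all 26 genes as the reference. The difference of actin there, -0.76, is close in size to those of starch synthase IV (0.85) and gid2 (0.75) on the actin scale.

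**Figure D2:**
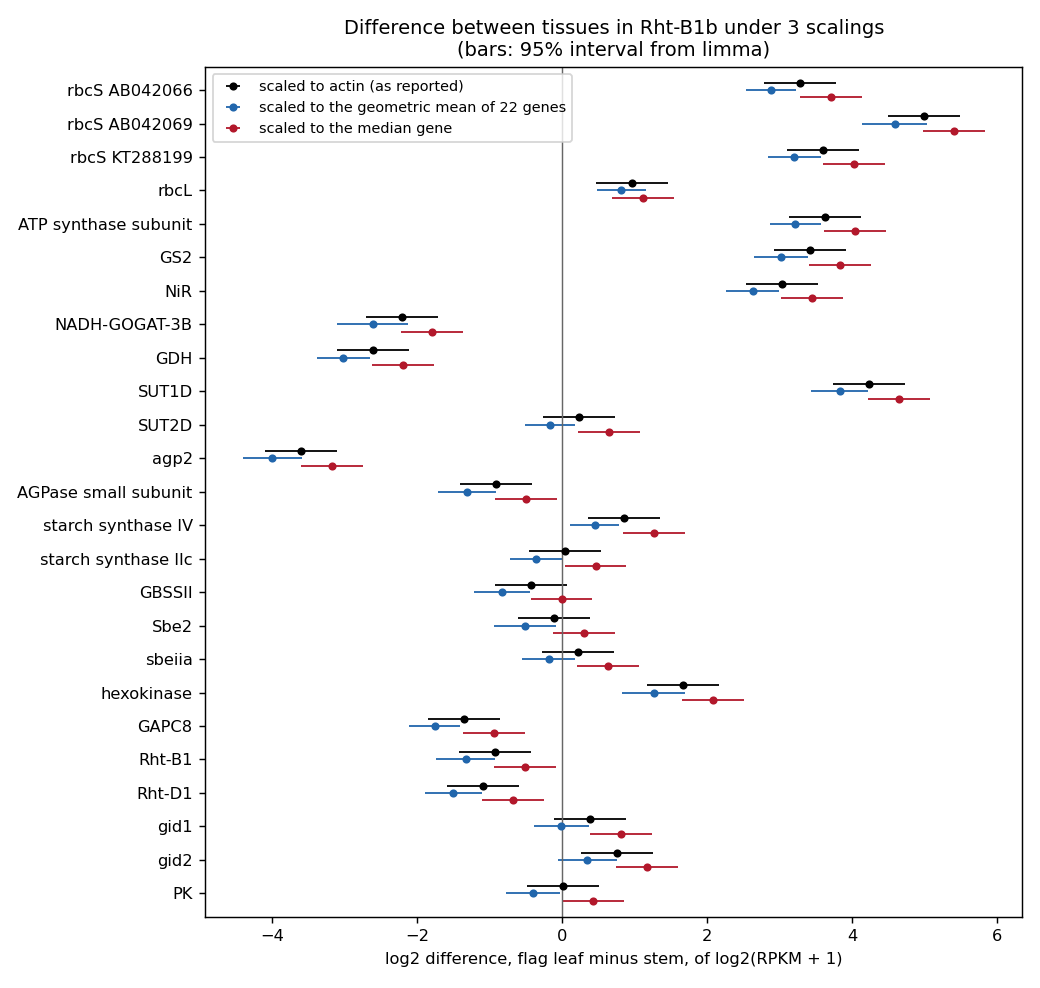
Log2 difference, flag leaf minus stem, of each gene with its 95% interval from limma, with samples scaled to actin (black), to the geometric mean of 22 genes (blue) and to the median gene (red). The genes with large differences keep their side of 0 under each scaling. The intervals of SUT2D, starch synthase IIc, GBSSII, Sbe2, sbeiia, gid1 and PK include 0 with actin and lie to 1 side of it under at least 1 other scaling, while that of gid2 comes to include 0 with the geometric mean of 22 genes.

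All 4 RuBisCO sequences were higher in leaves, against 44% of all 25 genes, which include them. The ratio of means was 9.93 to 31.1 for the 3 rbcS sequences, which may share reads. For rbcL, with values near the pseudocount, it was 6.90. RuBisCO is built of large subunits encoded by the plastid gene rbcL and small subunits encoded by the nuclear rbcS family. The sequence rbcS AB042066 had 1610924, 1135055 and 1004889 RPKM in leaf samples 11, 14 and 17 and 128283, 114003 and 135611 in stem samples 2, 5 and 8. It was the first in rank in all 6 samples, and every leaf was far above every stem. The leaf mean was 1250289 ± 319028 RPKM (SD, n = 3) against 125966 ± 10989 in stems, a ratio of 9.93 and a log2 difference of 3.29 (adjusted p = 6.20e-23 in limma, up to 0.000694 over 16 alternatives). The sequence KT288199 had 1268828, 810505 and 713750 RPKM in leaves and 76512, 63936 and 83782 in stems, a ratio of means of 12.5 (adjusted p = 2.30e-25 in limma, up to 0.000787 over 16 alternatives). The sequence AB042069 had 514989, 372725 and 309665 RPKM in leaves and 14973, 7832 and 15739 in stems. Its ratio of means, 31.1, was the largest of the 25 genes (log2 difference 4.99, adjusted p = 3.07e-35 in limma, up to 0.000787 over 16 alternatives).

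The 3 rbcS sequences thus did not differ between tissues to the same extent. AB042069 reached 0.320, 0.328 and 0.308 of the level of AB042066 in leaves and 0.117, 0.0687 and 0.116 in stems, with no overlap. This ratio was 3.26 times as high in leaves (log2 difference 1.71, standard error 0.27, adjusted p = 1.26e-06 from limma over 300 ratios, up to 5.61e-05 over 10 alternatives). For KT288199 the ratio to AB042066 was 0.788, 0.714 and 0.710 in leaves and 0.596, 0.561 and 0.618 in stems, also without overlap, but its log2 difference of 0.32 (95% interval -0.19 to 0.83) did not pass (adjusted p = 0.229 from limma). How reads of the rbcS copies were divided among the 3 sequences is not known, which bears on each of these ratios. Together the 3 sequences made up 88.0%, 87.5% and 85.9% of the summed RPKM of the 26 genes in leaves and 58.9%, 56.1% and 57.1% in stems.

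For rbcL, the gene of the large subunit, the sheet gave 1.79, 1.19 and 1.08 RPKM in leaves and 0.183, 0.183 and 0.222 in stems, the lowest of the 26 genes in all 6 samples. The libraries were made with TruSeq RNA kits, and how well they capture the transcript of a plastid gene was not tested. The low level of rbcL, its rank and its ratio to the nuclear rbcS may therefore not reflect its expression. Leaves lay above stems with a ratio of means of 6.90. As the values lie near the pseudocount, the log2 difference of 0.96 (adjusted p = 0.000368 from limma) is compressed. It was 2.76 with no pseudocount and 0.15 with a pseudocount of 10, where the call was lost (adjusted p = 0.413, between 3.50e-18 and 0.891 over 15 alternatives). The ratio of rbcL to rbcS AB042066 was lower in leaves by 0.53 on the log2 scale (adjusted p = 0.0494 from limma), a call lost in 8 of 9 alternatives. The ATP synthase subunit, part of the enzyme that makes ATP across energised membranes, had 148036, 118654 and 116325 RPKM in leaves and 11300, 8644 and 11220 in stems. Its ratio of means was 12.3 (log2 difference 3.62, adjusted p = 2.30e-25 in limma, up to 0.000352 over 16 alternatives), and its ratio to rbcS AB042066 did not pass (log2 difference 0.34, 95% interval -0.18 to 0.85, adjusted p = 0.208 from limma).

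Of the 4 nitrogen genes, 2 were higher and 2 lower in leaves, against 44% and 28% of all 25 genes. GS2, the plastid glutamine synthetase that binds ammonium into glutamine, had 216990, 135848 and 135135 RPKM in leaves and 14826, 11673 and 18843 in stems, a ratio of means of 10.8. NiR, the nitrite reductase that supplies this ammonium, had 13281, 8814 and 9973 RPKM in leaves and 1349, 1277 and 1242 in stems, a ratio of 8.29. Both were higher in 3 of 3 leaf samples than in any stem, at a log2 difference of 3.42 for GS2 and 3.03 for NiR (adjusted p = 5.59e-24 and 8.09e-21 from limma, up to 0.00105 and 0.000591 over 16 alternatives). The ratio of NiR to GS2 did not pass (log2 difference -0.39, 95% interval -0.93 to 0.15, adjusted p = 0.167 from limma, and 0.0445 without stem sample 8, up to 0.438 over 10 alternatives).

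The other nitrogen genes had the opposite direction. GDH encodes glutamate dehydrogenase, which can release ammonium from glutamate, and had 782, 572 and 486 RPKM in leaves and 3684, 3868 and 3498 in stems. Stems were 6.01 times as high as leaves, without overlap (log2 difference -2.61, adjusted p = 3.03e-17 in limma, up to 0.000787 over 16 alternatives). The glutamate synthase gene NADH-GOGAT-3B had 472, 367 and 436 RPKM in leaves and 1151, 2570 and 2529 in stems. The deposited name gives it as the NADH form and the study's own gene list as the ferredoxin-dependent form, and which of them was measured is not settled here. Stem sample 2 lay well below the other stems and still above every leaf, and the log2 difference was -2.21 (adjusted p = 9.28e-14 in limma, up to 0.00986 over 16 alternatives). Within samples, GS2 was 460, 371 and 310 times as high as NADH-GOGAT-3B in leaves and 12.9, 4.54 and 7.45 times as high in stems. GDH reached 0.00360, 0.00421 and 0.00360 of the level of GS2 in leaves and 0.248, 0.331 and 0.186 in stems. This ratio was 65.4 times as high in stems (log2 difference -6.03, standard error 0.27, adjusted p = 1.32e-17 in limma, up to 6.25e-11 over 10 alternatives).

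The sucrose transporter genes were far apart in leaves and close in stems. SUT1D, which encodes a proton-coupled sucrose carrier of the kind that loads phloem, had 18250, 17015 and 14618 RPKM in leaves and 952, 944 and 764 in stems. Leaves were 18.7 times as high as stems and the tissues did not overlap (log2 difference 4.23, adjusted p = 5.71e-30 in limma, up to 0.000181 over 16 alternatives). SUT2D, of the same family, had 799.6, 631 and 628 RPKM in leaves and 549, 601 and 589 in stems. All leaves lay slightly above all stems, but its log2 difference of 0.24 (95% interval -0.26 to 0.73) did not pass (adjusted p = 0.416 from limma), and it was -0.17 with the geometric mean of 22 genes. With the median gene it was 0.65 and passed as higher in leaves (adjusted p = 0.00451, up to 0.562 over 16 alternatives). The ratio of SUT1D to SUT2D was 22.8, 26.9 and 23.3 in leaves and 1.73, 1.57 and 1.30 in stems. It was 15.9 times as high in leaves (log2 difference 3.99, standard error 0.25, adjusted p = 2.46e-14 in limma, up to 4.08e-09 over 10 alternatives).

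Of 7 starch genes, 1 was higher in leaves, 2 were lower and 4 did not pass, against 44% higher and 28% lower of all 25 genes. Their median log2 difference was -0.11 against 0.24 over all 25 genes. The gene agp2, for the large subunit of AGPase, had 355, 243 and 314 RPKM in leaves and 3485, 2660 and 5209 in stems. Stems were 12.5 times as high as leaves, without overlap (log2 difference -3.60, adjusted p = 2.30e-25 in limma, up to 0.00105 over 16 alternatives), the largest difference among the genes higher in stems. The small subunit of AGPase had 1347, 718 and 627 RPKM in leaves and 1493, 1494 and 1810 in stems. Leaf sample 11 came close to the stems while the other leaves lay far below them, and the log2 difference was -0.91 (adjusted p = 0.000673 from limma). With the gene's own spread, an alternative added after the values were seen, this call was lost (adjusted p = 0.0845, between 3.34e-06 and 0.0845 over 16 alternatives).

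AGPase joins large and small subunits in 1 enzyme, and the balance of the subunit transcripts differed between tissues. The large subunit agp2 was at 0.263, 0.338 and 0.502 of the small subunit in leaves and at 2.33, 1.78 and 2.88 times its level in stems. The small subunit was thus the higher of the pair in 3 of 3 leaves and agp2 in 3 of 3 stems. The ratio was 6.44 times as high in stems (log2 difference -2.69, standard error 0.28, adjusted p = 7.89e-10 in limma, up to 2.55e-06 over 10 alternatives). Only these sequences of each subunit are among the genes compared, so other genes for the same subunits are not covered.

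Among the genes that extend and branch the glucan chains, starch synthase IV had 1320, 924 and 953 RPKM in leaves and 525, 530 and 712 in stems. It was higher in leaves in 3 of 3 samples than in any stem (log2 difference 0.85, adjusted p = 0.00144 in limma, up to 0.0262 over 16 alternatives). GBSSII, a granule-bound synthase that makes amylose, had 1932, 1217 and 1248 RPKM in leaves and 1739, 1534 and 2662 in stems. The tissues overlapped and the difference did not pass (log2 difference -0.42, 95% interval -0.92 to 0.07, adjusted p = 0.122 from limma), although it passed as lower in leaves with the geometric mean of 22 genes (log2 difference -0.83, adjusted p = 0.000350, up to 0.968 over 16 alternatives). Starch synthase IIc had means of 441 ± 84.6 RPKM in leaves and 433 ± 117 in stems (SD, n = 3), with a log2 difference of 0.04 (95% interval -0.45 to 0.54, adjusted p = 0.896 in limma, up to 0.914 over 15 alternatives). The branching enzyme genes Sbe2 and sbeiia overlapped between tissues. The log2 difference was -0.11 for Sbe2 (95% interval -0.61 to 0.39, adjusted p = 0.719 in limma, up to 0.815 over 15 alternatives) and 0.22 for sbeiia (95% interval -0.28 to 0.72, adjusted p = 0.437 in limma, up to 0.892 over 16 alternatives). Scaled to the geometric mean of 22 genes, Sbe2 passed as lower in leaves (adjusted p = 0.0275), and starch synthase IIc and sbeiia passed as higher with the median gene (adjusted p = 0.0413 and 0.00534). Their sign changed with the scaling, so no direction can be given for them.

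The mix of starch synthases nevertheless differed within samples. GBSSII was at 1.46, 1.32 and 1.31 times the level of starch synthase IV in leaves and at 3.32, 2.89 and 3.74 times in stems, 2.42 times as high in stems (log2 difference -1.28, standard error 0.25, adjusted p = 3.68e-05 in limma, up to 0.000731 over 10 alternatives). Starch synthase IIc was at 0.407, 0.442 and 0.396 of the level of starch synthase IV in leaves and at 0.698, 0.686 and 0.797 in stems. This was 1.75 times as high in stems (log2 difference -0.81, standard error 0.25, adjusted p = 0.00399 in limma, up to 0.0209 over 9 alternatives). The ratio of Sbe2 to sbeiia overlapped between tissues and did not pass (log2 difference -0.33, 95% interval -0.89 to 0.23, adjusted p = 0.256 from limma). Of 21 ratios among the starch genes 15 passed, which is 71.4% against 86.3% of all 300 ratios.

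The genes of sugar breakdown went in opposite directions. Hexokinase, which phosphorylates glucose at the entry to glycolysis, had 561, 667 and 480 RPKM in leaves and 127, 168 and 261 in stems, a ratio of means of 3.07 (log2 difference 1.66, adjusted p = 3.65e-09 in limma, up to 0.0131 over 15 alternatives). GAPC8, a cytosolic glyceraldehyde-3-phosphate dehydrogenase, had 47024, 33279 and 39746 RPKM in leaves and 97205, 95664 and 111790 in stems. Neither gene overlapped between tissues, and GAPC8 was 2.54 times as high in stems (log2 difference -1.35, adjusted p = 8.91e-07 in limma, up to 0.00255 over 16 alternatives). GAPC8 made up 26.1%, 28.9% and 27.1% of the summed RPKM in stems, where it ranked below rbcS AB042066 alone, and 1.22%, 1.26% and 1.68% in leaves, where its rank was 6. The summed RPKM was 330918 to 411981 in stems and 2360956 to 3859637 in leaves, so a gene at equal RPKM has a lower share in leaves. Hexokinase reached 0.0119, 0.0200 and 0.0121 of the level of GAPC8 in leaves and 0.00131, 0.00176 and 0.00234 in stems, a ratio 8.13 times as high in leaves (adjusted p = 8.18e-11 in limma, up to 1.47e-07 over 9 alternatives). The gene listed as PK had means of 2384 ± 258 RPKM in leaves and 2376 ± 299 in stems (SD, n = 3). Its log2 difference was 0.01 (95% interval -0.49 to 0.50, adjusted p = 0.977 in limma), and with the geometric mean of 22 genes it passed as lower in leaves (log2 difference -0.40, adjusted p = 0.0465, up to 0.978 over 16 alternatives).

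Of the 4 genes of gibberellin signalling, 1 was higher in leaves, 2 were lower and 1 did not pass, which is close to the 72% called of all 25 genes. DELLA proteins, which Rht-B1 and its homeolog Rht-D1 encode, restrain growth until gibberellin, bound by the receptor GID1, lets the F-box protein GID2 mark them for breakdown. Rht-B1, present here as the semi-dwarfing allele in every sample, had 2344, 2961 and 1917 RPKM in leaves and 4869, 4168 and 4499 in stems. Rht-D1 had 806, 848 and 770 RPKM in leaves and 2010, 1489 and 1720 in stems. Neither gene overlapped between tissues, and stems were 1.87 times as high for Rht-B1 and 2.15 times for Rht-D1. The log2 differences were -0.93 for Rht-B1 (adjusted p = 0.000586 in limma, up to 0.0256 over 16 alternatives) and -1.10 for Rht-D1 (adjusted p = 5.67e-05 in limma, up to 0.00421 over 16 alternatives).

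The ratio of the DELLA homeologs to each other did not pass. Rht-B1 was at 2.91, 3.49 and 2.49 times the level of Rht-D1 in leaves and at 2.42, 2.80 and 2.62 times in stems. These ranges overlapped, and the log2 difference of the ratio was 0.17 (95% interval -0.35 to 0.69, adjusted p = 0.527 from limma). How reads common to these copies were counted is not known. The receptor gene gid1 had 807, 891 and 718 RPKM in leaves and 618, 491 and 755 in stems, which overlapped (log2 difference 0.39, 95% interval -0.11 to 0.89, adjusted p = 0.154 from limma). It was -0.01 with the geometric mean of 22 genes and 0.81 with the median gene (adjusted p = 0.936, the highest of 16 alternatives, and 0.000484, which passed as higher in leaves). The gene gid2 had 1380, 1731 and 1149 RPKM in leaves and 874, 821 and 804 in stems, without overlap (log2 difference 0.75, adjusted p = 0.00477 from limma). This call was lost without leaf sample 14 (log2 difference 0.60, adjusted p = 0.0676) and with the geometric mean of 22 genes (log2 difference 0.35, adjusted p = 0.102), between 7.73e-07 and 0.102 over 16 alternatives. Rht-B1 was at 2.91, 3.32 and 2.67 times the level of gid1 in leaves and at 7.87, 8.48 and 5.96 times in stems. The ratio was 2.49 times as high in stems, independent of any scaling (log2 difference -1.32, standard error 0.26, adjusted p = 3.27e-05 in limma, up to 0.000912 over 10 alternatives).

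**Figure D3:**
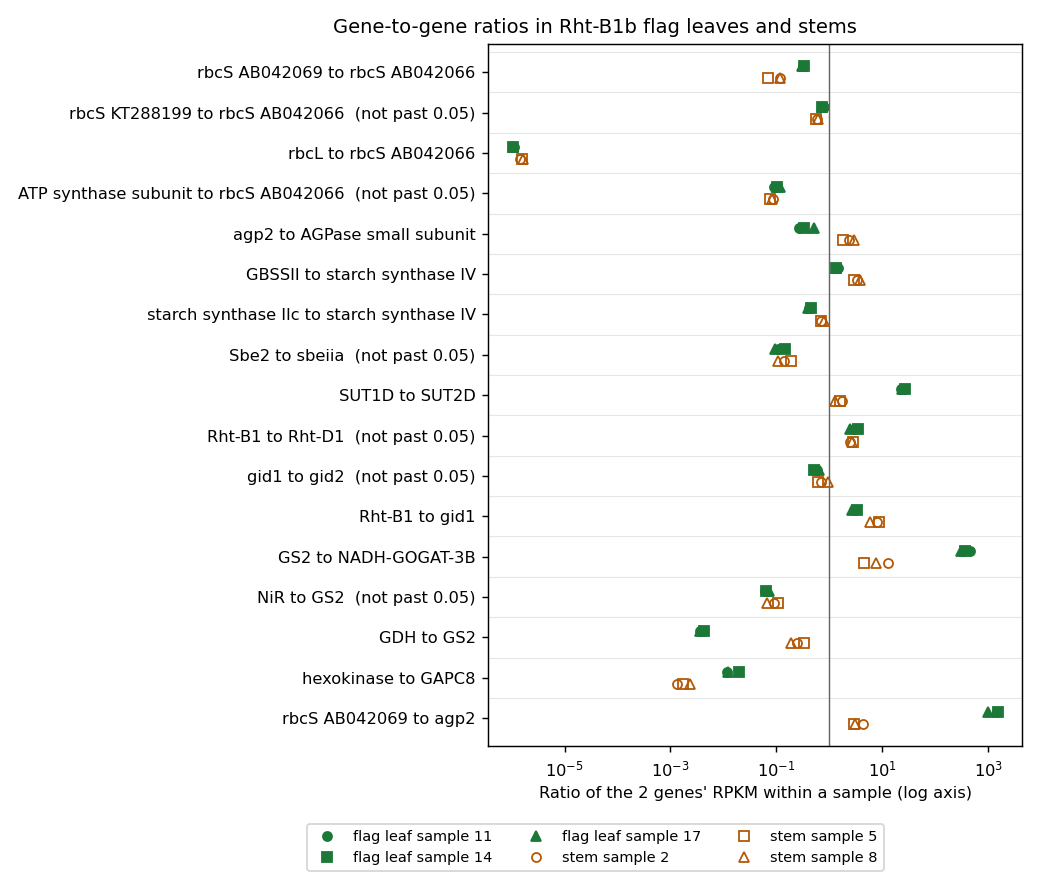
Ratio of RPKM of the 16 gene pairs chosen by role, and of the called ratio with the largest difference, within each flag leaf sample (filled green) and stem sample (open orange) of *Rht-B1b*, on a log axis; the vertical line marks equal levels. The ratio of agp2 to the AGPase small subunit is below 1 in each leaf and above 1 in each stem, SUT1D to SUT2D is at 22.8 to 26.9 in leaves and 1.30 to 1.73 in stems, and Rht-B1 to Rht-D1 overlaps.

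Over all 300 ratios of the 25 genes, 259 (86.3%) passed in limma and 260 (86.7%) did not overlap between tissues. Neither count depends on actin. The largest called difference was that of rbcS AB042069 to agp2, at 1451, 1536 and 985 in leaves and 4.30, 2.94 and 3.02 in stems (log2 difference 8.59, standard error 0.27). Of its 24 ratios to the other genes, rbcS AB042069 was higher in leaves in 24, SUT1D in 23 and the ATP synthase subunit and rbcS KT288199 in 19 each. Of the genes higher in stems, agp2 was lower in leaves in 24 of 24 ratios and GDH and NADH-GOGAT-3B in 22 of 24 each. Among the 7 genes that were not called, a group set by the same values, 3 of 21 ratios passed. Each of these 3 involved GBSSII, which was lower in leaves relative to gid1 (log2 difference -0.82, adjusted p = 0.00610 from limma), to sbeiia (-0.64, adjusted p = 0.0204) and to SUT2D, whose ratio to GBSSII differed by 0.66 (adjusted p = 0.0236).

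Ranks within a sample need no scale. Of 26 genes, actin included, 16 (61.5%) had ranks in the 3 leaves that did not overlap with those in the 3 stems. The gene agp2 fell furthest, from ranks 9, 9 and 7 in stems to 25, 25 and 24 in leaves. GDH went from 8, 8 and 9 in stems to 20, 21 and 20 in leaves, and NADH-GOGAT-3B from 17, 10 and 13 to 23, 23 and 22. In the other direction, SUT1D went from 18, 18 and 19 in stems to 7 in each leaf, NiR from 16, 17 and 17 to 8 in each leaf, and starch synthase IV from 22, 21 and 21 to 16, 15 and 15. The small subunit of AGPase moved from 14 in each stem to 15, 18 and 19 in leaves. GBSSII, Sbe2, GS2, rbcL and rbcS AB042066 had the same median rank in both tissues, although GS2 and rbcS AB042066 were about 10 times as high in leaves on the scale of actin. A gene at the top or bottom of the order has little room to move, so ranks say little of these genes.

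**Figure D4:**
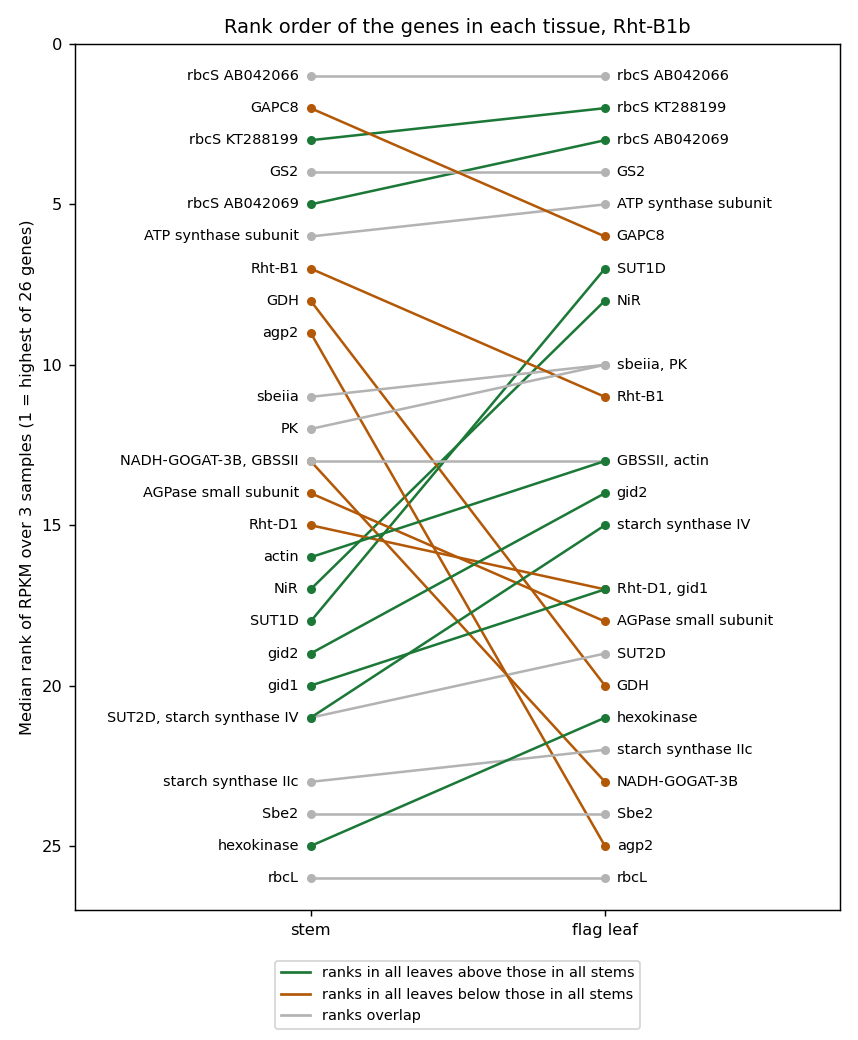
Median rank by RPKM of the 26 genes, actin included, over the 3 stem samples (left) and the 3 flag leaf samples (right) of *Rht-B1b*, with 1 as the highest; green and orange lines mark genes whose ranks do not overlap between tissues. The steepest falls from stem to leaf are those of agp2, GDH and NADH-GOGAT-3B and the steepest rises those of SUT1D and NiR.

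The labelled tissue could be checked by rbcS alone, which green mesophyll expresses highly and which was higher in each leaf sample than in each stem sample for all 3 sequences. It also led the order in stems, and the selected genes include none that marks stem cells.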

How the data were processed

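RNA of *Rht-B1b* flag leaves and stems was compared with 3 biological replicates per tissue, grouped by the submitters' titles. The authors matched reads with ArrayStar (version not given in the sources used here) at 100% over at least 50 bp to selected wheat sequences, and deposited RPKM scaled to actin. Of 27 lines, 1 repeat was dropped. The deposited averages, standard errors and p-values were not used. No genome build is stated, so no coordinates are given. Members and lists were chosen with earlier results of these data known. All 25 genes may be named, and ratios were named for 16 pairs chosen by role and for the called ratio with the largest difference.

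limma 3.58.1 in R 4.3.3 was fitted to the 6 samples on log2(RPKM + 1) without a block or filter, and to log2 ratios of all 300 gene pairs without a pseudocount. The fit was also run on simulated data in which genes varied independently. Genes of a sample tended to be high together here, so that run says little of these p-values. As it is unclear how many plants a sample holds, p-values measure only the spread between these samples. Alternatives were other pseudocounts, a minimum mean of 500 RPKM, other scalings, each sample left out, the replicate block, both lines in 1 fit, a variance trend and, added after the values were seen, each gene's own spread. The last of these was run for genes and not for ratios.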

Additional observations from a re-analysis of the deposited data

How the results depend on the processing

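The counts of 11 genes higher and 7 lower in leaves stayed within 10 to 11 and at 7 when each sample was left out, and the count of ratios that passed stayed within 246 to 256 of 300. The count of genes whose tissues did not overlap was 19 to 22 and that of ranks 16 to 18. With the geometric mean of 22 genes 17 of the 18 called genes, and with the median gene 18 of 18, remained called in the same direction. The 22 genes include many of the called genes themselves, and all genes as reference were not tried for these calls. The log2 difference of actin was 0.42 with the median gene as reference, -0.76 with all genes as reference, -0.40 with the replicate block (adjusted p = 0.0443) and -0.50 to -0.28 without each sample in turn. With the geometric mean of 22 genes the sign turned for SUT2D (-0.17), starch synthase IIc (-0.36), sbeiia (-0.19), gid1 (-0.015) and PK (-0.40), and with the median gene for Sbe2 (0.31). Without each sample in turn starch synthase IIc ran from -0.11 to 0.26, PK from -0.10 to 0.10 and Sbe2 from -0.28 to 0.080. The cause of these changes was not tested. No label ties a leaf sample to a stem sample. A passage of the methods reads as if each sampled plant gave both a leaf and an internode, with the plants in different rows. Leaf and stem samples may thus come from the same plants or rows. The fit without a block treats them as independent. Pairing leaf and stem samples in the order of their numbers gave correlations of deviations of -0.01, 0.16 and 0.17. The stem sample with the highest correlation was 5 for leaf sample 14 and 8 for leaf sample 17, but also 8 for leaf sample 11. The numbers are thus not shown to pair the samples, and pairing is not excluded. With pairing by number as the replicate block, 11 genes were higher and 7 lower, and 258 ratios passed. Depth is unknown, so low values such as those of rbcL have no counting limit.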
